A study of Mus musculus with 9 samples.

Results

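The interstitial matrix genes described here encode the collagens, adhesive glycoproteins, elastic fibre proteins and proteoglycans that fill the space between kidney tubules, together with the enzymes that cross-link or degrade them. They form a list of 45 symbols chosen by name and function, with no measured value in the rule, although earlier results of these data were known. Of these, 43 were measured among the 22180 genes tested, each read from its brightest probe set by mean value. *Fbn1* and *Loxl2* were not analysed here because no probe set used here carried either symbol alone. Values are log2 RMA values, in which 1 unit is a doubling, and values of separate mice are listed in the order of their replicate numbers.

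The arrays were hybridized with kidney RNA of male mice in 3 groups of 3, with 1 array per mouse. The control group was *db/m* and the model group *db/db*, both on vehicle for 12 weeks, and the third group was *db/db* on irbesartan for the same 12 weeks. Obesity and diabetes of *db/db* mice come from a leptin receptor mutation carried in every tissue, so that kidney values cannot be told apart from those of obesity as a whole. *db/m* mice were their nondiabetic controls, and irbesartan is an oral blocker of the angiotensin II type 1 receptor. The series gives an age of 10 weeks at the start, whereas the methods give a younger age, name the C57BL/KsJ background and speak of renal cortex where the labels say kidney. Markers of proximal tubule (7 of 7 measured), podocytes (5 of 7), endothelium (9 of 9) and loop of Henle or collecting duct (7 of 7) all lay above the median of all probe sets, which was 3.39. The 3 arrays of each group limit the precision of every value.

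Interstitial matrix is laid down mainly by fibroblasts and pericytes. In fibrosis these cells, driven largely by transforming growth factor beta, deposit type I and type III collagen and fibronectin, lysyl oxidases cross-link the fibres, and matricellular proteins and metalloproteinases shape the result. Angiotensin II is a known inducer of transforming growth factor beta in the kidney, which makes these genes a natural readout for an angiotensin receptor blocker. *db/db* mice are known for mesangial matrix expansion, and for little interstitial fibrosis.

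Few of these genes passed the thresholds for a call, and a gene that was not called is not thereby unchanged. The called share of the 43 was still above that of all genes in both comparisons given here. It rests on very few genes of a list made with earlier results known, and is a description only. In *db/db* against *db/m* kidneys, 1 of the 43 rose (*Col12a1*) and 2 fell (*Col6a5* and *Fmod*), where 2.3% of all 22180 genes were called, 1.31% as higher and 0.987% as lower. A call needed a limma adjusted p under 0.25 and a log2 fold change of more than 0.5 in either direction, the thresholds of the study. An unadjusted limma p under 0.05 was met by 8 of the 43 genes, against 13% of all genes. With irbesartan against untreated *db/db* mice, 1 of the 43 rose (*Col6a5*) and 0 fell, against 1.01% of all genes, and 8 of the 43 had an unadjusted limma p under 0.05, against 12.2% of all genes. The median log2 fold change over the 43 genes was -0.01 for *db/db* against *db/m* and -0.0039 for irbesartan against *db/db*, beside 0.01 and -0.01 over all genes. These 2 comparisons share the *db/db* arrays, so a gene that reads low in those 3 mice is pushed down in the former and up in the latter. In this bulk tissue, fewer matrix-producing cells and less RNA per cell cannot be told apart.

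**Figure D1:**
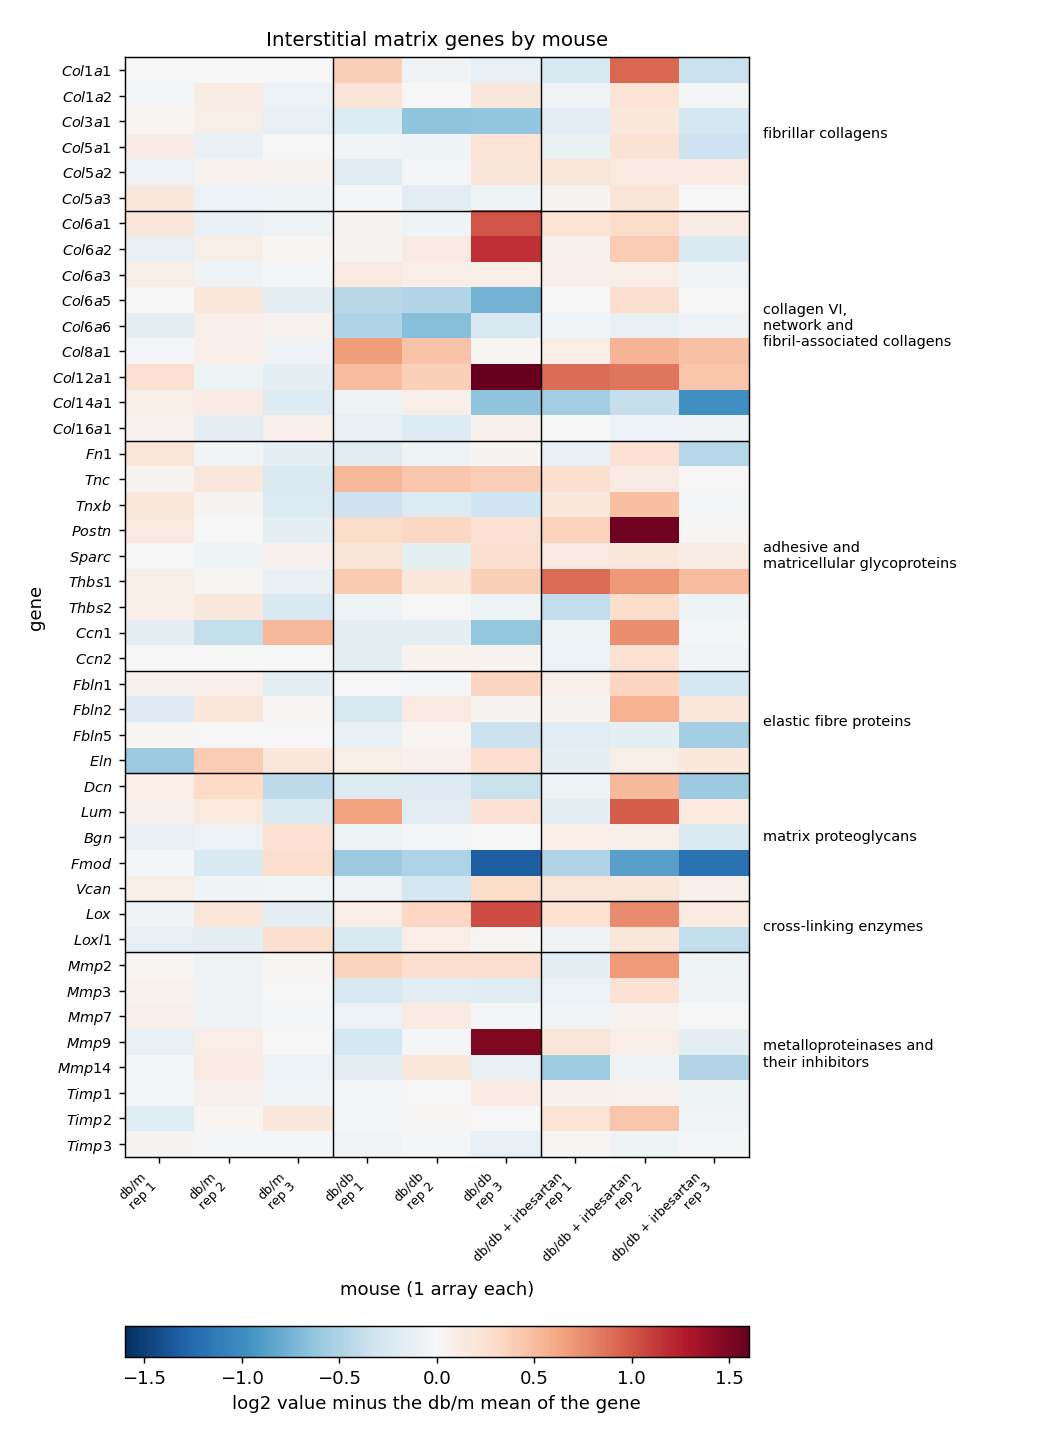
Log2 value of each of the 43 measured interstitial matrix genes (rows, ordered by role) in each of the 9 mice (columns) minus the *db/m* mean of that gene, on a colour scale in log2 units. Most cells are pale, and many of the strongest cells lie in 2 mice: *db/db* replicate 3 (*Mmp9*, *Col12a1*, *Col6a1*, *Col6a2*, *Lox*) and irbesartan replicate 2 (*Postn*, *Col1a1*, *Lum*, *Ccn1*).

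Before the groups are compared, 2 mice have to be set out, because they held several matrix genes far above the other mice of their group. *db/db* replicate 3 was more than 0.5 log2 units above the next *db/db* mouse in 5 of the 43 genes, namely *Mmp9* by 1.52, *Col12a1* by 1.08, *Col6a2* by 1.04, *Col6a1* by 0.95 and *Lox* by 0.71. It was also more than 0.5 below the next *db/db* mouse in *Fmod* (0.74) and *Col14a1* (0.56). The share of all genes with such gaps was not computed. All 8 neutrophil markers were also highest of the 9 mice in this mouse, with a mean of 4.82 against 2.60 to 2.79 in the other 8 mice. *Retnlg*, a neutrophil secreted protein, read 8.26 there and 3.01 and 3.83 in the other *db/db* mice. Outside this mouse the neutrophil list was dim. As means over all 9 mice, 6 of its 8 markers lay below the median of all probe sets. The part of these cells in the matrix values of that mouse was not tested.

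Irbesartan replicate 2 was more than 0.5 above the next treated mouse in 7 of the 43 genes, which were *Postn* (1.19), *Col1a1* (1.17), *Lum* (0.81), *Ccn1* (0.78), *Mmp2* (0.74), *Dcn* (0.59) and *Lox* (0.51). It was the highest of the 3 treated mice in 30 of the 43 genes, or 69.8%, against 36.9% of all genes. Irbesartan replicate 3 was the lowest of the 3 in 27, for which the share of all genes was not computed. Irbesartan replicate 2 had the highest value of all 9 mice in 6 of 8 fibroblast and 4 of 6 adipocyte markers. It also did so in 4 of 9 macrophage markers. Its adipocyte mean was 6.12, against 4.21 and 4.22 in the other treated mice, 4.01 to 4.27 in *db/db* mice and 4.09 to 5.34 in *db/m* mice. *Lep*, the leptin gene of fat cells, read 7.15 there and 3.65 in each of the other treated mice, and *Dpt*, a fibroblast matrix protein, read 6.72 against 4.98 and 3.98. Its macrophage mean was 5.82, against 4.86 and 5.11 in the other treated mice. The part of these tissues in its matrix values was not tested.

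The spread of the matrix genes between mice differed by group. Their median SD was 0.13 in *db/m*, 0.17 in *db/db* and 0.24 in irbesartan-treated mice, where that of all genes was 0.15, 0.12 and 0.10. Pooled over the groups it was 0.20 for the 43 genes and 0.15 for all genes. The most variable matrix genes were *Mmp9* (pooled SD 0.57), *Postn* (0.47), *Col1a1* (0.44), *Col12a1* (0.43) and *Lum* (0.42). All 5 were among the genes listed for these 2 mice, which is no separate result, because a mouse far above its group also widens the SD.

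**Figure D2:**
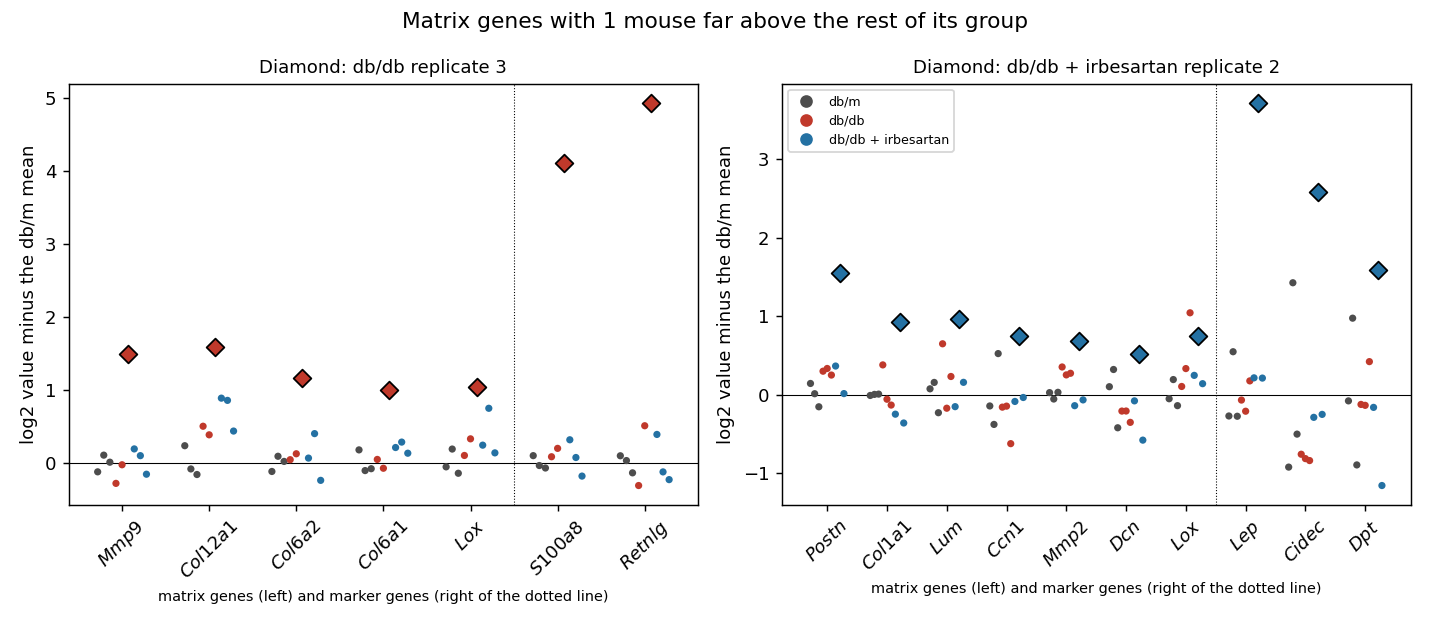
Log2 value minus the *db/m* mean (vertical axis) of matrix genes and, right of the dotted line, marker genes in all 9 mice, for *db/db* replicate 3 (left panel, diamonds) and irbesartan replicate 2 (right panel, diamonds). The diamond is the highest point of its own group for each gene shown, with *Retnlg* and *S100a8*, both neutrophil genes, in the left panel and *Lep*, *Cidec* and *Dpt* in the right panel.

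The fibrillar collagens build the rope-like fibres of scar tissue, and 0 of the 6 passed the test in *db/db* against *db/m* mice or with irbesartan. *Col1a1*, a chain of type I collagen, read 4.93, 4.94 and 4.95 in *db/m* mice, 5.32, 4.88 and 4.81 in *db/db* mice, and 4.69, 5.86 and 4.58 in treated mice. The 3 groups overlapped, and only irbesartan replicate 2 lay above the *db/db* range. The difference between *db/db* and *db/m* was 0.06, with a 95% interval from -0.55 to 0.67 that does not bound it within 0.5 either way. Without irbesartan replicate 2 the difference between treated and untreated *db/db* mice went from 0.04 to -0.37 (limma adjusted p = 0.435).

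*Col1a2*, the partner chain of *Col1a1* in type I collagen, was more even, at 5.32, 5.45 and 5.25 in *db/m* mice, 5.54, 5.35 and 5.52 in *db/db* mice and 5.30, 5.56 and 5.32 in treated mice. Its difference of 0.13 between *db/db* and *db/m* had an interval from -0.10 to 0.36, so that an increase above 0.5 lay outside it. *Col3a1*, the type III collagen that rises with type I in most scars, pointed the other way, at 5.22, 5.28 and 5.05 in *db/m* mice and 4.97, 4.54 and 4.55 in *db/db* mice. The groups did not overlap, and the difference came to -0.50 (SE 0.15, limma adjusted p = 0.170), just short of the fold threshold. Treated mice read 5.01, 5.37 and 4.90, a difference of 0.41 from *db/db* (SE 0.15, limma adjusted p = 0.321) with 1 treated mouse inside the *db/db* range. *Col3a1* passed as lower in *db/db* mice without *db/m* replicate 3 (-0.57, limma adjusted p = 0.193) and without *db/db* replicate 1 (-0.64, limma adjusted p = 0.111).

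Type V collagen starts the assembly of these fibres, and its 3 chains moved little. *Col5a1* read 4.76, 4.54 and 4.63 in *db/m* mice, 4.60, 4.57 and 4.86 in *db/db* mice and 4.53, 4.87 and 4.31 in treated mice, with all groups overlapping. *Col5a2* and *Col5a3* differed by less than 0.1 between *db/db* and *db/m* and by 0.15 and 0.17 between treated and untreated *db/db* mice. *Col5a2* lies next to *Col3a1* in the mouse genome, with 0 protein-coding genes between them in the RefSeq order, and it did not share the lower reading of *Col3a1* in *db/db* mice at -0.00058 (95% interval -0.24 to 0.24).

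Collagen VI forms a beaded network around cells, and its chains split. The classical chains *Col6a1* and *Col6a2*, which also lie side by side in the genome, were not called, and the late-described chains *Col6a5* and *Col6a6* read low in *db/db* kidneys. *Col6a5* (probe set 17530540) read 3.11, 3.29 and 2.97 in *db/m* mice, 2.68, 2.65 and 2.37 in *db/db* mice, and 3.12, 3.40 and 3.12 in treated mice. All 3 *db/db* mice lay below all 6 other mice.

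In *db/db* mice *Col6a5* fell by 0.56 (SE 0.13, limma adjusted p = 0.0705), and it rose by 0.65 with irbesartan (SE 0.13, limma adjusted p = 0.134), a 1.56-fold difference. Treated mice were 0.09 above *db/m* mice (95% interval -0.19 to 0.36). *Col6a5* is a dim gene here, below the median of all probe sets in each mouse except irbesartan replicate 2. Its higher value with irbesartan lost the call without *db/db* replicate 2 (0.69, limma adjusted p = 0.287), irbesartan replicate 1 (0.69, limma adjusted p = 0.299) or irbesartan replicate 3 (0.69, limma adjusted p = 0.354). Its lower value in *db/db* mice missed the fold threshold without *db/m* replicate 2 (-0.47) or *db/db* replicate 3 (-0.46).

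*Col6a6*, the neighbour of *Col6a5* with 0 protein-coding genes between them, read 3.73, 3.96 and 3.94 in *db/m* mice, 3.39, 3.19 and 3.63 in *db/db* mice, and 3.84, 3.76 and 3.83 in treated mice. Again the 3 *db/db* mice lay below all other mice. The difference between *db/db* and *db/m* was -0.47 (SE 0.12, limma adjusted p = 0.104) and that between treated and untreated *db/db* mice 0.40 (SE 0.12, limma adjusted p = 0.237), both under the fold threshold. Without *db/db* replicate 3 both passed, at -0.59 (limma adjusted p = 0.0659) and 0.52 (limma adjusted p = 0.158).

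The promoters of this neighbouring pair are shown because both genes read low in the same 3 mice. They are taken from RefSeq, build GRCm38.p6, both on the minus strand of chromosome 9, from 250 bases before to 50 bases after the gene start, at chr9:105960594-105960893 for *Col6a5* and chr9:105828036-105828335 for *Col6a6*. Capitals mark a match, on either strand, to CAGAC, the letters bound by SMAD proteins downstream of transforming growth factor beta.
Col6a5: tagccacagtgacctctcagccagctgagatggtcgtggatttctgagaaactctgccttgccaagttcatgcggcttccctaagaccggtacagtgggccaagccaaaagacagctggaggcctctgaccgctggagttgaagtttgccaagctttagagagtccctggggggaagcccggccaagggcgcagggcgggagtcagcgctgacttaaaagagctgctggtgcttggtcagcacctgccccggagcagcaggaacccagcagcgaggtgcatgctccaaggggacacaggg
Col6a6: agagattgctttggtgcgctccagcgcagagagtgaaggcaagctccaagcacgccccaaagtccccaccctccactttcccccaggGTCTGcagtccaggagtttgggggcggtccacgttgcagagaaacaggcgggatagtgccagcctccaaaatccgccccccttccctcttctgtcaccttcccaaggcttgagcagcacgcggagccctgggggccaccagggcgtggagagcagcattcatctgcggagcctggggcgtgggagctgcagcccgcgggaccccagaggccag
The *Col6a6* window held 1 match, on the strand opposite to the gene, from -163 to -159, and 0 matches to the AP-1 letters TGANTCA, the TEAD letters GGAATG or the TATA letters TATAAA. The *Col6a5* window held 0 matches to any of these 4 motifs. CAGAC occurs in 49.6% of the 32851 promoters of that table and in 17 of the 30 matrix genes that have an entry there, so a match to so short a motif is a description only. The other motifs were found in 4 (AP-1), 4 (TEAD) and 7 (TATA) of those 30 genes, against 7.81%, 14.7% and 13.6% of all promoters.

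*Col6a1* read 6.62, 6.34 and 6.37 in *db/m* mice, 6.49, 6.37 and 7.44 in *db/db* mice, and 6.66, 6.73 and 6.58 in treated mice. *Col6a2* followed it, at 5.32, 5.52 and 5.45 in *db/m* mice, 5.48, 5.56 and 6.60 in *db/db* mice and 5.50, 5.83 and 5.19 in treated mice. In both genes the high *db/db* value is replicate 3 alone, the mouse with the neutrophil signal. Without it their differences between *db/db* and *db/m* went from 0.33 to -0.01 for *Col6a1* and from 0.45 to 0.09 for *Col6a2*. *Col6a3*, the third classical chain, differed by 0.12 (95% interval -0.08 to 0.31).

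**Figure D3:**
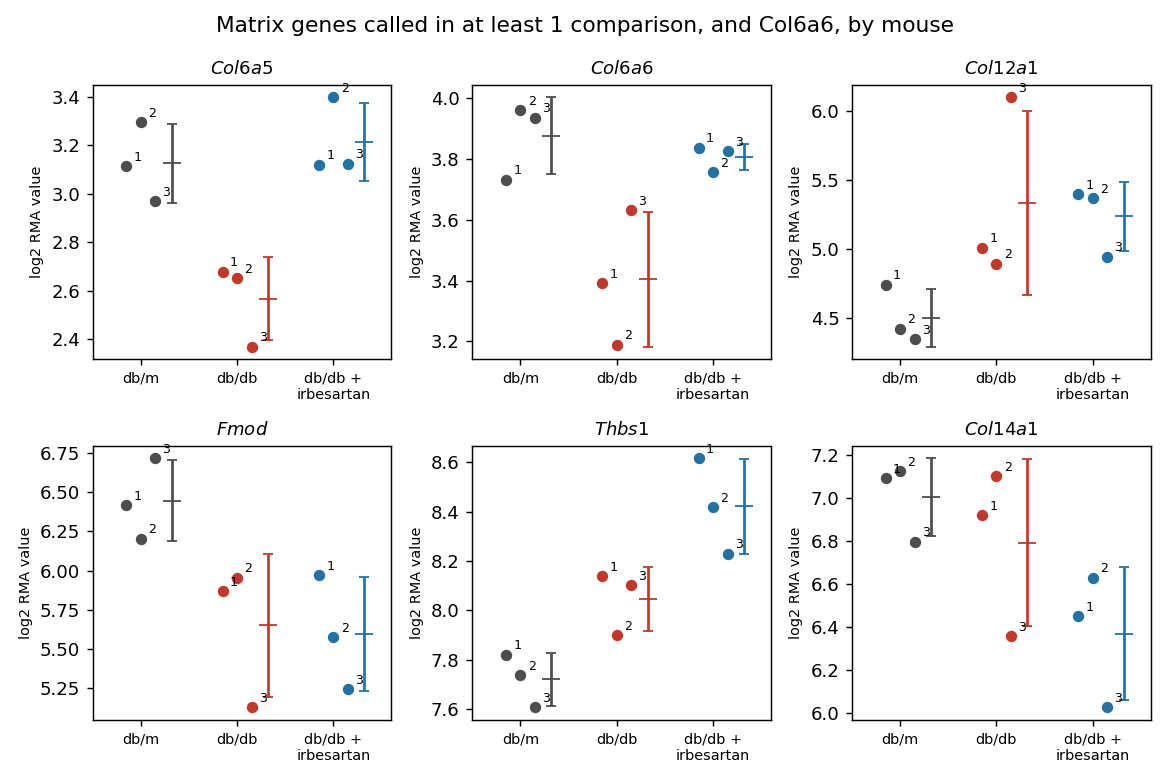
Log2 RMA value (vertical axis, scaled per gene) of the 5 matrix genes called in at least 1 comparison and of *Col6a6* in each mouse, numbered by replicate, with the mean and SD of each group (bars, n = 3). *Col6a5* and *Col6a6* are low in all 3 *db/db* mice, *Thbs1* is lowest in *db/m* and highest in treated mice, and *db/db* replicate 3 alone carries the high *Col12a1* value of 6.10.

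Collagens XII and XIV coat the surface of collagen fibres and space them, and in treated against *db/m* mice *Col12a1* rose and *Col14a1* fell. *Col12a1* (probe set 17529099) read 4.74, 4.43 and 4.35 in *db/m* mice, 5.01, 4.89 and 6.10 in *db/db* mice, and 5.40, 5.37 and 4.95 in treated mice. Every *db/db* and every treated mouse lay above every *db/m* mouse. Its log2 fold change was 0.83 in *db/db* against *db/m* mice (SE 0.27, limma adjusted p = 0.208), a 1.77-fold rise, and 0.73 in treated against *db/m* mice (SE 0.27, limma adjusted p = 0.193), where 3.89% of all genes were called, 1.93% as higher and 1.96% as lower. Treated and untreated *db/db* mice differed by -0.10, with an interval from -0.69 to 0.49.

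The *db/db* call of *Col12a1* was lost in 11 of 19 alternatives. Without *db/db* replicate 3 the difference between *db/db* and *db/m* mice was 0.45 (limma adjusted p = 0.327), and leaving out *db/m* replicate 2 or 3 or irbesartan replicate 1 or 2 also took the adjusted p above 0.25, at fold changes of 0.75 to 0.83. The treated against *db/m* call was lost without *db/m* replicate 2 (0.69), *db/m* replicate 3 (0.65), irbesartan replicate 1 (0.65) or irbesartan replicate 2 (0.66).

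*Col14a1* (probe set 17311551) read 7.09, 7.12 and 6.80 in *db/m* mice, 6.92, 7.10 and 6.36 in *db/db* mice, and 6.45, 6.63 and 6.03 in treated mice. The *db/db* mice overlapped both other groups, while the treated mice lay wholly below the *db/m* mice. The treated mice were lower than *db/m* mice, with a difference of -0.64 (SE 0.20, limma adjusted p = 0.127), a call lost without *db/m* replicate 1 (-0.59, limma adjusted p = 0.257) or irbesartan replicate 3 (-0.46, limma adjusted p = 0.368). Against untreated *db/db* mice the difference was -0.42 (SE 0.20, limma adjusted p = 0.425), and without *db/db* replicate 3 it was -0.64 and passed (limma adjusted p = 0.218).

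*Col8a1*, a short-chain collagen of vessel walls and glomeruli, read 5.52, 5.62 and 5.49 in *db/m* mice, 6.21, 5.99 and 5.57 in *db/db* mice, and 5.64, 6.08 and 6.01 in treated mice. It was not called, with 0.38 for *db/db* against *db/m* (SE 0.16, limma adjusted p = 0.348), but *db/db* replicate 3 was the only *db/db* mouse inside the *db/m* range. Without that mouse the difference was 0.56 and passed (limma adjusted p = 0.152). *Col16a1*, which also binds fibre surfaces, differed by -0.09 (95% interval -0.32 to 0.13).

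The adhesive and matricellular glycoproteins link cells to matrix, and many are switched on in wounds. Of the 9, 0 passed in *db/db* against *db/m* mice, 0 passed with irbesartan against *db/db*, and 1 rose in treated against *db/m* mice. That gene was *Thbs1* (probe set 17374488), thrombospondin-1, which can release transforming growth factor beta from its latent form. It read 7.82, 7.74 and 7.61 in *db/m* mice, 8.14, 7.90 and 8.10 in *db/db* mice, and 8.62, 8.42 and 8.23 in treated mice. The 3 groups did not overlap, with *db/m* lowest and treated mice highest.

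Treated mice exceeded *db/m* mice in *Thbs1* by 0.70 (SE 0.12, limma adjusted p = 0.0120), a 1.62-fold rise and the only matrix gene with an adjusted p under 0.05 and a fold change past 0.5 in any comparison. By that stricter rule 0 of the 43 were called in *db/db* against *db/m* mice, against 1.02% of all genes, 0 with irbesartan against *db/db*, against 0%, and 1 in treated against *db/m* mice, against 2.49%. *Thbs1* kept its call in all 19 alternatives, with fold changes from 0.60 to 0.79 and adjusted p from 0.00419 to 0.176. The steps that make it up were each below the thresholds, at 0.32 for *db/db* against *db/m* (SE 0.12, limma adjusted p = 0.269) and 0.37 for irbesartan against *db/db* (SE 0.12, limma adjusted p = 0.262).

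*Tnc*, tenascin-C, a glycoprotein of injured tissue, read 4.97, 5.11 and 4.70 in *db/m* mice, 5.46, 5.36 and 5.32 in *db/db* mice, and 5.18, 5.06 and 4.92 in treated mice. All *db/db* mice lay above all others. Its difference was 0.45 in *db/db* against *db/m* mice (SE 0.12, limma adjusted p = 0.117), under the fold threshold, and -0.32 with irbesartan (SE 0.12, limma adjusted p = 0.322). It passed without *db/m* replicate 2 (0.54, limma adjusted p = 0.0863).

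*Tnxb*, tenascin-X, which organizes collagen fibres in resting tissue, had differences opposite in sign to those given for *Tnc*. It read 4.91, 4.78 and 4.51 in *db/m* mice, 4.40, 4.51 and 4.41 in *db/db* mice, and 4.90, 5.21 and 4.70 in treated mice. The *db/db* mice lay below both other groups, but *db/db* replicate 2 only just below *db/m* replicate 3, at 4.509 against 4.512. Against *db/m* mice the *db/db* mice differed by -0.29 (SE 0.14, limma adjusted p = 0.407). The interval of that difference, from -0.60 to 0.01, included no change. The difference with irbesartan was 0.49 (SE 0.14, limma adjusted p = 0.224), just under the fold threshold, and 0.36 (limma adjusted p = 0.396) without irbesartan replicate 2.

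*Ccn1* and *Ccn2* are early targets of stretch and growth factor signals, and *Ccn2*, connective tissue growth factor, is a widely used marker of kidney fibrosis. *Ccn2* read 8.29, 8.28 and 8.30 in *db/m* mice, 8.13, 8.35 and 8.35 in *db/db* mice, and 8.20, 8.53 and 8.24 in treated mice. The groups overlapped, and the interval of the difference between *db/db* and *db/m* ran from -0.25 to 0.23. *Ccn1* read 7.15, 6.92 and 7.82 in *db/m* mice, 7.14, 7.15 and 6.67 in *db/db* mice, and 7.21, 8.04 and 7.26 in treated mice. Its difference with irbesartan was 0.52 (SE 0.26, limma adjusted p = 0.452), and 0.25 without irbesartan replicate 2.

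*Fn1*, fibronectin, the scaffold on which collagen assembles, read 7.96, 7.73 and 7.62 in *db/m* mice, 7.58, 7.69 and 7.82 in *db/db* mice, and 7.65, 8.004 and 7.32 in treated mice. Its groups overlapped, and the interval for *db/db* against *db/m* ran from -0.43 to 0.27. *Postn*, periostin, a matricellular protein of active fibrosis, read 3.22, 3.09 and 2.92 in *db/m* mice, 3.38, 3.41 and 3.33 in *db/db* mice, and 3.44, 4.63 and 3.09 in treated mice. The value of 4.63 is irbesartan replicate 2, and without it the difference between treated and untreated *db/db* mice turned from 0.35 to -0.10. *Sparc* and *Thbs2* differed by at most 0.11 in either direction in both comparisons.

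None of the 4 measured elastic fibre proteins was called in any comparison. *Eln*, elastin itself, read 3.26, 4.24 and 4.01 in *db/m* mice, 3.93, 3.91 and 4.11 in *db/db* mice, and 3.69, 3.93 and 4.001 in treated mice. The low *db/m* replicate 1 set its difference of 0.15, which was -0.14 without that mouse. *Fbln5*, a fibulin that guides elastin assembly, read 9.46, 9.42 and 9.42 in *db/m* mice, 9.33, 9.46 and 9.09 in *db/db* mice, and 9.25, 9.27 and 8.89 in treated mice. Treated mice lay below *db/m* mice by -0.30 (limma adjusted p = 0.267). *Fbln2* read 4.29, 4.67 and 4.51 in *db/m* mice, 4.23, 4.63 and 4.54 in *db/db* mice, and 4.53, 5.04 and 4.66 in treated mice, overlapping throughout.

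The small proteoglycans sit on collagen fibres and set their thickness, and of the 5 proteoglycans *Fmod* fell. *Fmod*, fibromodulin (probe set 17217373), read 6.42, 6.20 and 6.72 in *db/m* mice, 5.87, 5.96 and 5.13 in *db/db* mice, and 5.97, 5.58 and 5.25 in treated mice. All 6 *db/db* mice, treated or not, lay below all 3 *db/m* mice. In *db/db* mice it fell by 0.79 (SE 0.23, limma adjusted p = 0.165) and by 0.85 in treated mice, both against *db/m* (SE 0.23, limma adjusted p = 0.0830). Treated and untreated *db/db* mice differed by -0.05 (95% interval -0.57 to 0.46).

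A dimmer probe set of *Fmod* gave -0.61 and -0.40 for these differences from *db/m*. The *db/db* call was lost without *db/m* replicate 1 (-0.81, limma adjusted p = 0.271), *db/m* replicate 3 (-0.66, limma adjusted p = 0.331) or *db/db* replicate 3 (-0.53, limma adjusted p = 0.350). The treated call was lost without irbesartan replicate 3 (-0.67, limma adjusted p = 0.271).

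*Dcn*, decorin, which binds transforming growth factor beta as well as collagen, read 8.68, 8.90 and 8.16 in *db/m* mice, 8.37, 8.37 and 8.22 in *db/db* mice, and 8.50, 9.09 and 7.998 in treated mice. Its neighbour *Lum*, lumican, read 3.10, 3.18 and 2.79 in *db/m* mice, 3.67, 2.85 and 3.26 in *db/db* mice, and 2.87, 3.99 and 3.18 in treated mice. Groups overlapped in both, and irbesartan replicate 2 was the highest of the 9 mice in both. *Bgn*, biglycan, differed by -0.04 between *db/db* and *db/m* (95% interval -0.31 to 0.23), and the dim *Vcan*, versican, by -0.01 (95% interval -0.30 to 0.28).

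Lysyl oxidases harden the matrix by cross-linking collagen and elastin, and neither measured member was called. *Lox* read 3.94, 4.18 and 3.85 in *db/m* mice, 4.09, 4.32 and 5.03 in *db/db* mice, and 4.24, 4.74 and 4.13 in treated mice. The high values are *db/db* replicate 3 and irbesartan replicate 2, and the difference between *db/db* and *db/m* went from 0.49 to 0.22 without the former. *Loxl1*, which acts mainly on elastin, read 7.07, 7.06 and 7.48 in *db/m* mice, 6.96, 7.31 and 7.22 in *db/db* mice, and 7.14, 7.39 and 6.80 in treated mice, with all groups overlapping.

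Metalloproteinases cut matrix proteins and the tissue inhibitors of metalloproteinases restrain them, and 0 of these 8 genes passed in any comparison. *Mmp9*, a gelatinase stored in neutrophil granules, read 3.76, 3.99 and 3.89 in *db/m* mice, 3.60, 3.85 and 5.37 in *db/db* mice, and 4.07, 3.98 and 3.72 in treated mice. Its difference of 0.40 in *db/db* mice turned to -0.15 without replicate 3. *Mmp8*, the neutrophil collagenase, which is not among the 43 genes, read 5.93 in that mouse and 2.91 and 2.97 in the other *db/db* mice.

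*Mmp2*, the gelatinase of fibroblasts, read 5.66, 5.58 and 5.67 in *db/m* mice, 5.99, 5.89 and 5.91 in *db/db* mice, and 5.50, 6.31 and 5.57 in treated mice. The *db/db* mice lay above the *db/m* mice without overlap by 0.29 (SE 0.18, limma adjusted p = 0.524), while irbesartan replicates 1 and 3 lay below the *db/m* mice and replicate 2 above all other mice. *Mmp3*, stromelysin-1, was dim at 2.71, 2.59 and 2.65 in *db/m* mice, 2.40, 2.49 and 2.46 in *db/db* mice and 2.56, 2.88 and 2.59 in treated mice. *Mmp14*, which activates *Mmp2* at the cell surface, read 5.15, 5.67 and 5.24 in treated mice against 5.57, 5.88 and 5.58 in *db/db* mice, a difference of -0.33 (SE 0.14, limma adjusted p = 0.397). Against *db/m* mice the treated mice differed by -0.36 (SE 0.14, limma adjusted p = 0.228), under the fold threshold. Without irbesartan replicate 2 that difference was -0.52 and passed (limma adjusted p = 0.0832).

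*Timp1*, the inhibitor that rises in most fibrotic kidneys, stayed below the median of all probe sets at 2.71 to 2.91 over the 9 mice. Its difference between *db/db* and *db/m* was 0.03 (95% interval -0.16 to 0.23). *Timp3*, the inhibitor bound to matrix, read 11.05 to 11.22 over the 9 mice, with an interval from -0.25 to 0.12 for the same difference. *Timp2* and *Mmp7* gave -0.01 and 0.0045.

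**Figure D4:**
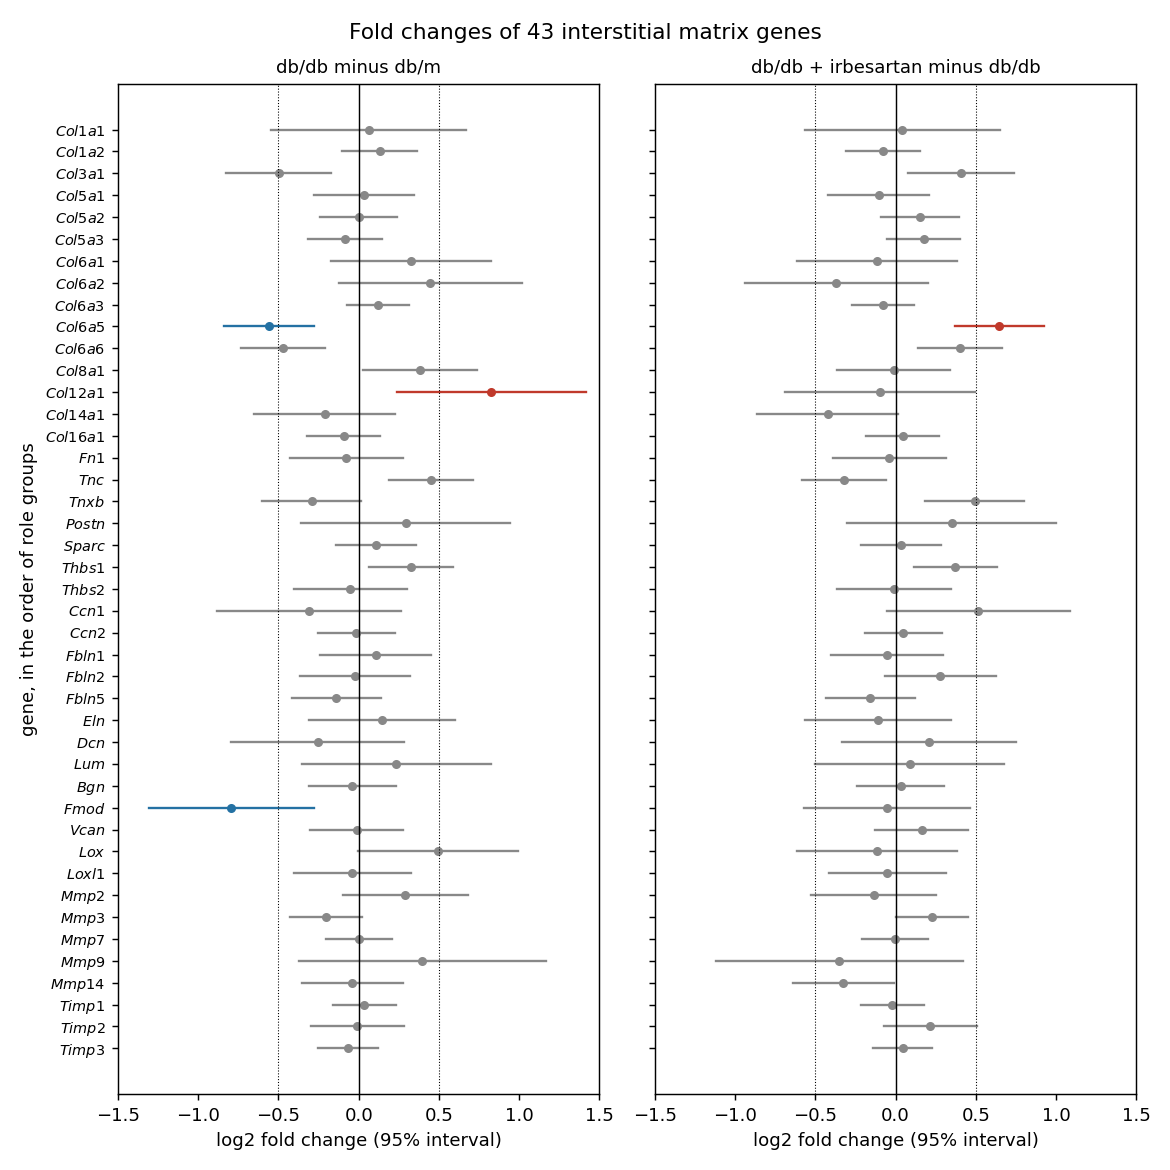
Log2 fold change (horizontal axis, points) with its 95% interval from limma (lines) of the 43 matrix genes, in role order, for *db/db* minus *db/m* (left) and irbesartan minus *db/db* (right), with called genes in colour and dotted lines at the fold threshold of 0.5 in either direction. Left, 22 of the 43 intervals lie wholly between the dotted lines, and right, 20.

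Read as intervals, the data bounded some of these genes and not others. In *db/db* against *db/m* mice the 95% interval lay wholly within 0.5 of no change for 22 of the 43 genes, or 51.2%, against 75% of all genes. With irbesartan it did so for 20 of the 43, or 46.5%, against 76.6% of all genes. Among the genes it did bound in both comparisons were *Col1a2*, *Fn1*, *Ccn2*, *Sparc*, *Bgn*, *Timp1* and *Timp3*, while *Col1a1*, *Lum*, *Postn* and *Mmp9* were bounded in neither. *Timp1* lay below the median of all probe sets, and RMA compresses differences of dim probe sets, so its interval bounds the RNA less well.

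Groups that do not overlap were more common than calls. In *db/db* against *db/m* mice, 6 of the 43 genes lay wholly above and 7 wholly below the *db/m* mice, where 9.18% and 7.62% of all genes did, or 16.8% in either direction. With irbesartan against *db/db*, 7 lay wholly above and 2 wholly below, where 8.71% and 13.1% of all genes did, or 21.8% in either direction. In treated against *db/m* mice 2 of the 43 genes rose, *Col12a1* and *Thbs1*, and 2 fell, *Col14a1* and *Fmod*, with a median over the 43 of 0.05. Of all genes, 1.93% were called as higher and 1.96% as lower in that comparison. There 5 of the 43 lay wholly above and 3 wholly below the *db/m* mice, where 23.5% of all genes did not overlap.

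The genes that process collagen before and after secretion gave few calls. Of 20 measured of 22, *Colgalt2*, which adds galactose to collagen, rose in *db/db* against *db/m* mice by 0.51 (limma adjusted p = 0.0417), 0 fell, and 0 passed with irbesartan against *db/db*. Over all genes, 1.31% were called as higher and 0.987% as lower in the former comparison, and 1.01% were called in the latter. With irbesartan against *db/db*, 16 of the 20 had fold changes below 0, with a median of -0.10 beside -0.01 over all genes. There 7 of the 20 lay wholly below the *db/db* mice and 1 wholly above, where 13.1% and 8.71% of all genes did. *Crtap*, part of the collagen prolyl hydroxylase complex, had 8.10, 7.96 and 8.39 in *db/m* mice, 7.67, 7.70 and 7.73 in *db/db* mice, and 7.70, 7.67 and 7.48 in treated mice. All 6 *db/db* mice were below the *db/m* mice. *Crtap* fell by 0.53 in treated against *db/m* mice (limma adjusted p = 0.0348), where 1.96% of all genes were called as lower.

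Among transforming growth factor beta ligands, receptors and targets, 19 measured of 20, 0 passed in *db/db* against *db/m* mice and 0 with irbesartan against *db/db*. In treated against *db/m* mice 2 of the 19 fell and 0 rose, where 1.96% of all genes were called as lower and 1.93% as higher. *Tgfbr2*, the receptor that binds the ligand, fell by 0.58 (limma adjusted p = 0.00641), from 7.24, 7.33 and 7.24 to 6.68, 6.75 and 6.63, with *db/db* mice between them at 7.04, 7.20 and 7.13. *Itgb6*, an epithelial integrin chain that activates the ligand, fell by 0.65 (limma adjusted p = 0.0247), from 8.29, 8.24 and 7.93 to 7.46, 7.48 and 7.57. Their differences between treated and untreated *db/db* mice were -0.44 (limma adjusted p = 0.135) and -0.46 (limma adjusted p = 0.223), under the fold threshold.

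Of the other genes of collagen turnover, 20 measured of 21, 0 passed in *db/db* against *db/m* mice and 0 with irbesartan against *db/db*. In treated against *db/m* mice *Mmp19* (0.56, limma adjusted p = 0.247) and *Timp4* (0.95, limma adjusted p = 0.230) rose and the dim *Mmp13* fell by 0.66 (limma adjusted p = 0.0791). Of all genes, 1.93% were called as higher and 1.96% as lower there. *Timp4* read 5.24 in irbesartan replicate 2 and 3.64 and 3.39 in the other treated mice. *Ctsk*, cathepsin K, a collagen-degrading protease of macrophages and fibroblasts, read 5.70 in that mouse and 3.98 and 3.92 in the other treated mice.

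Markers of the cells that make interstitial matrix gave 1 call in *db/db* against *db/m* mice. None of the 8 fibroblast markers was called in any of the 3 comparisons, and the mean of the list ran from 4.76 to 5.17 in *db/m* mice, 4.91 to 4.98 in *db/db* mice and 4.63 to 5.35 in treated mice. Of the 9 pericyte and smooth muscle markers, *Rgs5*, a pericyte signalling regulator, rose in *db/db* against *db/m* mice by 0.64 (limma adjusted p = 0.0237), where 1.31% of all genes were called as higher, and 8 were not called. In that comparison 7 of the 9 had fold changes above 0, with a median of 0.21 beside 0.01 over all genes. Of the 9, 4 lay wholly above the *db/m* mice, where 9.18% of all genes did. *Rgs5* was also called as higher in treated against *db/m* mice, by 0.72, where 1.93% of all genes were. The mean of the pericyte list ran from 6.82 to 6.92 in *db/m* mice, 6.996 to 7.09 in *db/db* mice and 6.91 to 7.08 in treated mice, so that *db/db* and *db/m* mice did not overlap. This was not particular to pericytes. Podocyte means ran from 6.35 to 6.51 in *db/m* and 6.53 to 6.65 in *db/db* mice (median log2 fold change 0.21). Those of loop of Henle and collecting duct ran from 9.22 to 9.30 and from 9.42 to 9.57 (median 0.27). Means of the 3 genes measured of 5 listed as mesangial (*Itga8*, *Gata3* and *Sox17*) did not overlap either, while those of endothelium and proximal tubule did. Of the 6 measured lymphocyte markers 3 fell in *db/db* mice, against 0.987% of all genes. *Cd3e* was among them, lower by 0.81 (limma adjusted p = 0.0472), and list means were 3.67 to 3.73 in *db/m* and 3.13 to 3.36 in *db/db* mice. The part of these cells in the matrix values was not tested.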

How the data were processed

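Total kidney RNA of 9 mice was measured on 1 Affymetrix whole-transcript mouse gene array each. The deposited table holds log2 values that the authors made with RMA in Affymetrix Expression Console, which corrects background, normalizes across arrays and summarizes probes, and which compresses differences of dim probe sets. The genome build is not given in the sources used here. Values were used as deposited. Of 41345 probe sets, 23521 carried 1 symbol, 1820 several and 16004 none here, and only the first kind was used. The probe set with the highest mean stood for each gene, with no filter on low values.

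Group means were fitted to all 9 arrays together in limma 3.58.1 (R 4.3.3). Variances were moderated, with 6 residual and 5.05 prior df, and p was adjusted by Benjamini-Hochberg over 22180 genes. The printed inequality of the study's fold change condition was turned round. Errors are standard errors of the fit, and intervals are 95%. The fit was tested on simulated data. The replicates are separate mice. Their numbers do not pair the groups, and no block was used.

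The members and lists were chosen with earlier results of these data known. By rule, values in every mouse were given for genes called in any comparison and for the highest and lowest member of each of the 7 role groups in *db/db* against *db/m* or irbesartan against *db/db*. Values of *Col1a1*, *Col6a1*, *Col6a2*, *Col6a6*, *Col8a1*, *Fn1*, *Ccn2*, *Tnxb*, *Postn*, *Mmp2*, *Mmp14*, *Ctsk*, *Mmp8* and single marker genes were added after they were seen. Promoters came from RefSeq, and 30 of the 45 members had an entry. Figures were drawn with matplotlib 3.10.9 (Python 3.11.15). The alternatives fitted only the 6 arrays compared, left variances unmoderated, gave them a trend, removed dim probe sets, averaged each gene's probe sets, centred or quantile-normalized the arrays again, used a stricter adjusted p, or took the replicate number as a block. Each array was also left out in turn and, in an alternative added after the data were seen, both mice that stood apart were left out together.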

Additional observations from a re-analysis of the deposited data

How the results depend on the processing

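The counts of called matrix genes are small and moved with the fit. In *db/db* against *db/m* mice the count of 3 became 0 with unmoderated variances and 0 at an adjusted p under 0.05, and it ran from 2 to 4 over the fits that left out 1 array each. None of the 3 genes was among the 2 called without *db/db* replicate 3. With irbesartan against *db/db* the count of 1 became 0 with unmoderated variances, with dim probe sets removed (*Col6a5* is 1 of those) and at an adjusted p under 0.05. It ran from 0 to 3 over the fits that left out 1 array, being 0 without *db/db* replicate 2, irbesartan replicate 1 or irbesartan replicate 3 and 3 without *db/db* replicate 3, and it was 2 without both mice that stood apart (*Col6a6* higher, *Col14a1* lower). In treated against *db/m* mice the count of 4 became 1 (*Thbs1*) with unmoderated variances and 1 at an adjusted p under 0.05, and it ran from 3 to 4 over the fits that left out 1 array.

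The median log2 fold change over the matrix genes ran from -0.03 to 0.06 in *db/db* against *db/m* mice, from -0.10 to 0.089 with irbesartan against *db/db*, and from -0.02 to 0.13 in treated against *db/m* mice over the fits that left out 1 array, and it was -0.10 with irbesartan without irbesartan replicate 2 and 0.089 without irbesartan replicate 3. Same-numbered mice of different groups did not deviate together, with correlations from -0.08 to 0.04 over 9 pairs. With the replicate number as a block, the counts were 2 (*Col6a5* and *Fmod*), 1 (*Col6a5*) and 3 (*Col14a1*, *Thbs1* and *Fmod*), so that *Col12a1* lost its calls.

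Several differences that were not called changed sign. *Col12a1* with irbesartan against *db/db* went from -0.10 to 0.28 when *db/db* replicate 3 was left out, to 0.05 when irbesartan replicate 3 was, and to 0.22 when both mice that stood apart were. *Col14a1* in *db/db* against *db/m* mice went from -0.21 to 0.0051 without *db/db* replicate 3, with or without irbesartan replicate 2. *Col6a5* in treated against *db/m* mice went from 0.09 to -0.0052 without irbesartan replicate 2, with or without *db/db* replicate 3. *Fmod* with irbesartan against *db/db* went from -0.05 to 0.077 with the mean of its probe sets, and, with 1 mouse left out, to 0.06 (*db/db* replicate 1), 0.10 (*db/db* replicate 2) and 0.12 (irbesartan replicate 3). Of 792 refits of 14 uncalled genes, 44 changed the sign of differences of at most 0.40 and 4 passed the thresholds. Median centring moved the share of higher calls over all genes with irbesartan against *db/db* from 57.4% to 35.3%, and *Col6a5* stayed called. Over the fits that left out 1 array these 4 differences ran from -0.32 to 0.28 (*Col12a1*), -0.37 to 0.0051 (*Col14a1*), -0.0052 to 0.17 (*Col6a5*) and -0.31 to 0.12 (*Fmod*). The cause of these changes was not tested. No other background correction was tried, since the deposited values are already RMA values, and 6 of the 43 matrix genes lie below the median of all probe sets.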

Other observations

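The mean deviation of the 43 matrix genes from their *db/m* means was 0.29 in irbesartan replicate 2 and -0.11 in irbesartan replicate 3, a wider gap than between any *db/db* mouse and the *db/m* mice, and 0.09 in *db/db* replicate 3. Of the 43 genes, 19 were highest of all 9 mice in irbesartan replicate 2 and 9 in *db/db* replicate 3. The matching shares of all genes were not computed. *Cd68*, a lysosomal protein of macrophages, read 7.03 in irbesartan replicate 2 and 4.90 and 4.75 in the other treated mice. *Mmp12*, the macrophage elastase, read 3.94 in that mouse and 2.52 and 2.64 in the others. *Cidec*, a lipid droplet protein of fat cells, read 6.69 there, and also 5.53 in *db/m* replicate 2 against 3.19 and 3.61 in the other *db/m* mice.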
